A study of Mus musculus with 2 samples.

Results

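The NMDA receptor subunit genes are Grin1, Grin2a, Grin2b, Grin2c, Grin2d, Grin3a and Grin3b, the 7 mouse genes that encode subunits of this glutamate-gated channel. They were taken by name, without reference to their values, from the 21938 protein-coding genes of GENCODE M21 on the autosomes and sex chromosomes, and they lie on 7 different chromosomes. Their accessible chromatin was read from DNase-seq, which maps stretches of DNA in nuclei that the enzyme DNase I can cut. The tissue was right cerebral cortex of female adult B6CASTF1/J mice aged 18 to 20 months, the first-generation hybrid of C57BL/6J and CAST/EiJ. There was 1 group with 2 biological replicates, and no treatment, second tissue or control. Both replicates carry the same donor identifier in the labels, which do not say whether they came from separate animals, so the spread between them may be technical. The question open to these data is therefore which parts of the 7 genes were accessible, and how far the 2 libraries gave the same answer.

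NMDA receptors are tetramers of obligatory GluN1 subunits, which bind glycine or D-serine, with GluN2 subunits, which bind glutamate, or GluN3 subunits, which bind glycine. They pass calcium when glutamate and a co-agonist are bound and the membrane is depolarised enough to expel magnesium from the pore, which makes them coincidence detectors in synaptic plasticity. In the adult cortex GluN2A and GluN2B are the main glutamate-binding subunits, GluN2C is best known from cerebellar granule cells and astrocytes, GluN2D from interneurons and early development, and GluN3B from motor neurons.

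The sequences that carry what follows are printed here 5′ to 3′ from the GRCm38.p6 reference (the assembly that mm10 names), which is that of C57BL/6J and not of CAST/EiJ. In the first of them, capitals mark runs of at least 5 bases that lay in a footprint of both replicates (shorter overlaps stay in lower case), a footprint being a short stretch inside accessible chromatin that was cut less than its surroundings. The stretch upstream of the first start site of Grin1, to the end of its promoter peak, holds 1 such run in 153 bases and is on the minus strand at chr2:25319188-25319340.
Grin1 upstream: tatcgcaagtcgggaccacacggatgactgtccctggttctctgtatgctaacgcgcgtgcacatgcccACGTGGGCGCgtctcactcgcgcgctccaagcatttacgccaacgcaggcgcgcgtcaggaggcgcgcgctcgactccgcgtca
The strongest shared regions inside Grin2a (minus strand, chr16:9801381-9801680) and Grin2b (minus strand, chr6:135907621-135907900) are intronic and each hold 2 such runs.
Grin2a intron: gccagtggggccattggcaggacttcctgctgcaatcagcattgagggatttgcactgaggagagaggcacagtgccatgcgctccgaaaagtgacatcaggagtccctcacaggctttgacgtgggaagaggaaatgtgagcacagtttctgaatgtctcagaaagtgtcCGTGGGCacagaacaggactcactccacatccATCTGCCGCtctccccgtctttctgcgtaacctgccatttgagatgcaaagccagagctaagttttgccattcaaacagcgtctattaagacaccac
Grin2b intron: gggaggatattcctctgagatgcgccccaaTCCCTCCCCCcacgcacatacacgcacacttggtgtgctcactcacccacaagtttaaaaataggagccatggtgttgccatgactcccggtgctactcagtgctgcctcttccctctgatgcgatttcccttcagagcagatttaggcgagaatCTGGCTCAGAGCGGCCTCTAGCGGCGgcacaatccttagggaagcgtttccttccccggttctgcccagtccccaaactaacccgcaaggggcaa
The one shared region of Grin2d that is no gene's promoter (minus strand, chr7:45866041-45866280) overlaps a coding exon and its edge.
Grin2d exon: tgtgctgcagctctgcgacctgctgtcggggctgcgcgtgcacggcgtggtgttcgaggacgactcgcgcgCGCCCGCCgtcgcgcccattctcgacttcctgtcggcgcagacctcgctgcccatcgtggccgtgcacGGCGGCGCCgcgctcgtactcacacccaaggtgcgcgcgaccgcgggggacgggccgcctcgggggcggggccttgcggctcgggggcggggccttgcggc
For contrast, the same length upstream of the start site of Grin2c (minus strand, chr11:115267244-115267396), which held no peak, has capitals for 3 matches to the GC box GGGCGG, the last of which overlap.
Grin2c upstream: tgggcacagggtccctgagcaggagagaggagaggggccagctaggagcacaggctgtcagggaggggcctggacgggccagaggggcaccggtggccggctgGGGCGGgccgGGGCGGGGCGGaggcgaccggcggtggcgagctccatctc
The Grin2c bases are RefSeq's (GRCm38.p6), whose promoter table matched 4 of the 7 genes, Grin1, Grin2c, Grin2d and Grin3b; Grin2a, Grin2b and Grin3a are named only.

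The promoters of 4 of the 7 genes, Grin1, Grin2a, Grin2b and Grin3a, held a peak in both replicates, as did 57.9% of all protein-coding genes. Grin2c, Grin2d and Grin3b held none in either replicate, as did 38.1% of all genes. A promoter here reaches 500 bp to each side of every start site GENCODE lists for the gene, and the strongest peak touching it gives its value. Values are the signal that the authors deposited for each peak; its scaling, and whether it is a peak's maximum or mean, are not stated. The tissue is bulk, so accessibility in fewer cells and less accessibility per cell cannot be told apart.

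The libraries differed in depth and in level. All values of a library were whole multiples of 1 step, 0.00497 in replicate 1 and 0.00892 in replicate 2, which would be 201 M and 112 M reads (M for mega) if 1 step is 1 read per M; this depth is inferred from the values and not stated by the files. Over the 12692 genes whose promoter had a peak in each library, the median value was 2.19 in replicate 1 and 3.20 in replicate 2, and 93.5% of them were higher in replicate 2, by a median of 1.41-fold. The SDs below include that shift between libraries. Of the cortical excitatory neuron markers (Slc17a7, Tbr1, Neurod6, Neurod2, Camk2a) 3 of 5 had a promoter peak in both replicates and the other 2 in one. The counts in both were 3 of 6 for astrocytes, 2 of 6 for oligodendrocytes, 1 of 6 each for inhibitory neurons, microglia and cerebellar neurons, and 0 of 6 for hepatocytes. Those in neither were 2 of 6 for astrocytes and 3 of 6 each for oligodendrocytes and inhibitory neurons. They were 4 of 6 for microglia, 5 of 6 for cerebellar neurons and 6 of 6 for hepatocytes. Any other marker of these lists had a peak in 1 replicate only. The 1 cerebellar marker was Calb2 (0.547 and 1.11). Over all protein-coding genes the share was 57.9%.

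Grin1, which encodes the obligatory GluN1 subunit, had the highest promoter value of the 7 genes in both replicates. Its gene spans 28.0 kb on the minus strand (chr2:25291181-25319187). The promoter peak lay at the same position in both libraries, chr2:25319081-25319340, across the first start site and the 5′ UTR. Its value was 2.44 in replicate 1 and 3.82 in replicate 2, a mean of 3.13 ± 0.976 (SD, n = 2). At the inferred depth these values rest on 490 reads (exact 95% Poisson interval 448 to 535) and 428 reads (388 to 471), where the intervals reflect counting error alone. Those values were above 55.8% and 61.3% of the other genes with a promoter peak in both, so the Grin1 promoter stood a little above the middle of accessible promoters.

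Grin2a, which encodes GluN2A, had a promoter peak of 1.54 in replicate 1 and 2.41 in replicate 2, a mean of 1.97 ± 0.613 (SD, n = 2). These are 310 and 270 inferred reads. Its promoter windows held 3 shared regions, a shared region being a merged stretch with a peak of each replicate. In replicate 1 the strongest was the one over the first start site (chr16:9995281-9995880, 1.54 and 2.06). In replicate 2 it was one about 1.7 kb into the gene (chr16:9993761-9994020, 1.36 and 2.41). Between them lay a wider and weaker region (chr16:9994377-9995220, 0.949 and 1.52). The order of the 3 regions thus differed between replicates, while all 3 were higher in replicate 2.

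Grin2b, which encodes GluN2B, also had 3 shared promoter regions. Its promoter value was 1.20 in replicate 1 and 2.41 in replicate 2, a mean of 1.81 ± 0.852 (SD, n = 2), from 242 and 270 inferred reads. In replicate 1 the strongest peak lay just upstream of the gene, in chr6:136173541-136173780 (1.20 and 1.83). In replicate 2 it lay in an intron 1.14 kb downstream of the first start site, in chr6:136172141-136172600 (1.14 and 2.41). The region over the first exon (chr6:136172681-136173500) was the weakest, with 0.731 and 1.01. The non-coding gene Gm26653 has a start site within that last region, and DNase-seq carries no strand, so the peak counts for either gene. Grin2a and Grin2b are thus both cases where the strongest promoter peaks of the replicates did not overlap, which held for 5.57% of those 12692 genes. That share covers genes with any number of promoter regions, while these 2 have 3 each. For Grin2b the 2 positions were nearly level in replicate 1 (1.20 and 1.14).

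Grin3a, which encodes the glycine-binding GluN3A, had a single promoter region (chr4:49845641-49845960) over its first start site. Its value was 1.84 in replicate 1 and 2.06 in replicate 2, a mean of 1.95 ± 0.156 (SD, n = 2), from 370 and 231 inferred reads. It was the member with the smallest difference between the libraries, 1.12-fold, against 1.57-fold for Grin1, 1.56-fold for Grin2a and 2.00-fold for Grin2b. Relative to the median difference of all genes, the log2 of replicate 1 over replicate 2 was 0.33 for Grin3a, -0.15 for Grin1, -0.15 for Grin2a and -0.50 for Grin2b. The SD of that log2 difference over all genes was 0.35, so Grin2b alone of the 4 lay further from the median than 1 SD. That difference compares 2 different positions, and with windows of 100 bp it was -0.11, within 1 SD. After Grin1 came Grin3a, Grin2a and Grin2b in replicate 1, whereas in replicate 2 Grin2a and Grin2b were level and Grin3a was below them. The ranges of these 3 genes overlapped, so no order among them holds in both replicates.

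**Figure D1:**
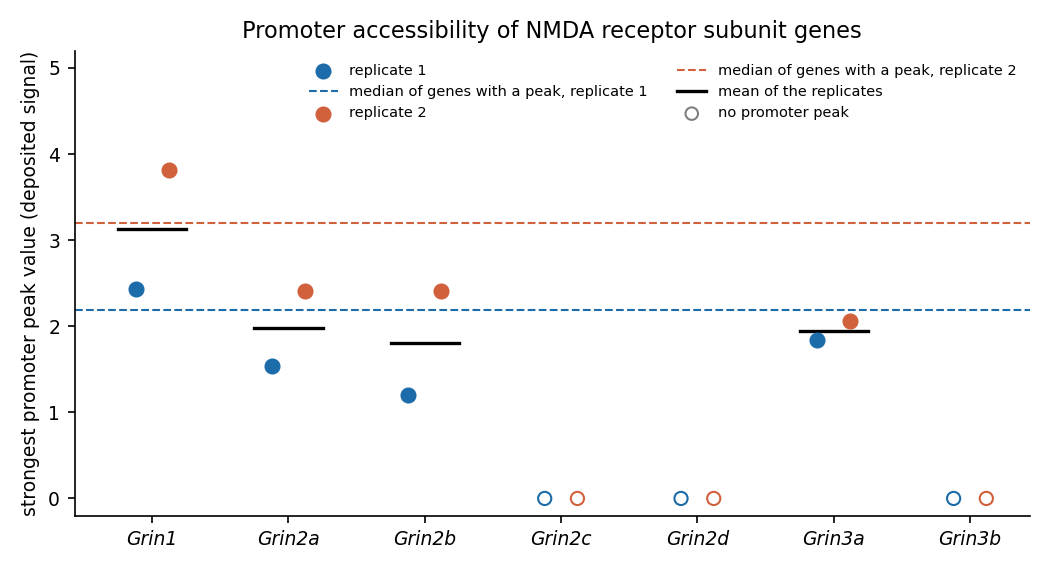
Strongest promoter peak value (deposited signal, vertical axis) of each subunit gene in replicates 1 and 2; black bars are means, dashed lines the medians over the 12692 genes accessible in both (2.19 and 3.20), and open circles drawn at 0 mark genes with no promoter peak. In each replicate Grin1 (2.44 and 3.82) lies above that replicate's median and Grin2a, Grin2b and Grin3a below it, and Grin2c, Grin2d and Grin3b have no peak.

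Grin2c, which encodes GluN2C (chr11:115249169-115267243, minus strand), had no peak in any promoter window in either replicate, and no shared region inside the gene. The interval lists, which hold intervals whose cut rate passed a false discovery rate (FDR) below 0.05, had none in its promoter windows or in any of the 18075 bp of the gene, in either replicate. No such promoter interval in either replicate was the case for 32.6% of all genes, while 63.3% of all genes and 4 of the 7 members had one in both. The nearest peak of the shorter list lay 3338 bp upstream, at chr11:115270581-115270760 in replicate 1, inside the neighbouring gene Fdxr. Its value was 0.924 in replicate 1 and 2.40 in replicate 2. The longer list of replicate 2 added a weak peak (0.383) 3130 bp upstream.

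Grin3b, which encodes GluN3B (chr10:79970715-79977190, plus strand), was likewise without a promoter peak, a shared region or an interval with FDR below 0.05 anywhere in its 6476 bp in either replicate. The longer, more permissive peak list of replicate 2 held 1 weak peak (0.419) 1267 bp upstream, within the gene Wdr18, and that of replicate 1 held none there. For Grin2c and Grin3b the absence is a statement about the deposited lists at these depths and not about expression.

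Grin2d, which encodes GluN2D (chr7:45831883-45878378, minus strand), differed from those 2 genes. None of its 3 GENCODE start sites had a peak within 500 bp in the shorter list. In the longer list 62.4% of all genes and the same 4 members had a promoter peak in both. It gave Grin2d promoter peaks only in replicate 2. The strongest was 0.508, and another of 0.455 lay over the start site at 45870429. In replicate 2 the window around that start site held 371 bp with FDR below 0.05 (lowest FDR 0.00249). A region of both replicates lay 849 bp from another GENCODE start site, at chr7:45866041-45866280, with 1.03 in replicate 1 and 1.88 in replicate 2 (mean 1.46 ± 0.603, SD, n = 2). It is the Grin2d sequence printed above. RefSeq places the start of Grin2d at 45866681, which is 421 bp from that peak in replicate 1 and 401 bp in replicate 2. With RefSeq start sites added, an alternative chosen after seeing the data, 5 of the 7 promoters held a peak in both replicates, and the same count came from windows of 2000 bp, under which 61.7% of all genes had one. A stronger region in a Grin2d intron (chr7:45872681-45872880, 1.69 and 2.92) overlaps the promoter of Kdelr1 and was not counted for Grin2d.

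The CpG content around the first start site set the 7 genes apart in another way. The ratio of observed to expected CpG in the 500 bp on either side was 0.975 for Grin1, higher than 97.1% of all genes. It was 0.782 for Grin2a, 0.737 for Grin3a, 0.710 for Grin2c, 0.614 for Grin3b, 0.431 for Grin2b and 0.0870 for Grin2d. The median was 0.727 over genes with a promoter peak in both replicates and 0.190 over genes with none. Grin2c and Grin3b, with no peak, had ratios above that of Grin2b, whose promoter had a peak in both. The low ratio of Grin2d belongs to its farthest upstream GENCODE start site, and at the start site nearest to its region of both replicates the ratio was 0.418.

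Outside promoters, Grin2a and Grin2b held most of the accessible regions of the family. The 7 genes had 41 shared regions in their gene bodies that touched no promoter window of any gene, of which 20 were in Grin2a, 15 in Grin2b, 4 in Grin3a, 1 in Grin1, 1 in Grin2d and none in Grin2c or Grin3b. At least 1 such region was present in 5 of the 7 genes and in 35.0% of all protein-coding genes. Distal regions, which are those whose nearest protein-coding start site within 100 kb was the gene's own, numbered 25, with 17 for Grin2a, 3 each for Grin2b and Grin3a, and 1 each for Grin1 and Grin2d. A distal region was present for 5 of the 7 genes and for 52.7% of all genes. A region can be both, and 46 different regions fell in at least 1 of the classes. Replicate 1 taken alone (without replicate 2) gave 67 gene-body and 49 distal regions, and replicate 2 alone gave 45 and 25. The longer peak list gave 75 and 48 shared ones and the stronger 50% of peaks 24 and 14, with Grin2a first in each. In gene bodies with the stronger 50% Grin2a had 12 and Grin2b 11.

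Grin2a spans 427.7 kb (chr16:9567898-9995560) and all of its 20 gene-body regions were intronic. They were spread from 10.2 to 406 kb downstream of the first start site, with no gap between neighbours wider than 59.0 kb. Their values ran from 0.557 to 2.07 in replicate 1 (median 0.982) and from 0.758 to 2.43 in replicate 2 (median 1.07), and 16 of the 20 were higher in replicate 2. The strongest was the Grin2a intron region printed above, with 2.07 in replicate 1 and 2.43 in replicate 2 (mean 2.25 ± 0.249, SD, n = 2). It lay 4048 bp from an annotated start site inside the gene, at 9797333, whose own window held no interval with FDR below 0.05. The second strongest inside the gene was chr16:9768361-9768760, with 1.70 and 1.95.

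Upstream of Grin2a lay 3 further regions for which its start site was the nearest of a protein-coding gene. One of them, chr16:10063501-10063800, 68.1 kb upstream of the first start site, was the strongest region of all that were assigned to Grin2a, with 2.47 in replicate 1 and 2.67 in replicate 2 (mean 2.57 ± 0.139, SD, n = 2). The others were at 38.2 kb (1.50 and 2.01) and 77.8 kb upstream (0.969 and 1.52). In both replicates the region at 68.1 kb had a higher value than any of the 3 promoter regions of the gene.

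Grin2b is of similar length, 460.3 kb (chr6:135713233-136173511), and its 15 gene-body regions were also all intronic, but they were placed differently. Apart from the promoter regions, the first 100 kb of the gene held no shared region of the shorter list. A pair of abutting regions lay at 100.7 and 101.0 kb, a gap of 120.7 kb followed, and the other 13 regions lay between 221.6 and 376.0 kb downstream. With the longer list Grin2b had 31 gene-body and 10 distal regions, and replicate 1 alone gave 23 and 10. Where those lay is not given here, so this placement is that of the shorter list. The strongest was the Grin2b intron region printed above, 265.8 kb downstream, with 2.34 in replicate 1 and 3.89 in replicate 2 (mean 3.11 ± 1.10, SD, n = 2). Its value exceeded that of the Grin2b promoter in both replicates. The second strongest was chr6:135859561-135859780, with 1.94 and 2.69. Over the 15 regions the values ran from 0.537 to 2.34 in replicate 1 and from 0.704 to 3.89 in replicate 2, and 11 were higher in replicate 2. Since 13 of them were more than 100 kb from any start site of Grin2b, the distance limit left 2 of these 15 in the distal count, beside a weak region 21.4 kb upstream of the gene (0.651 and 0.678).

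**Figure D2:**
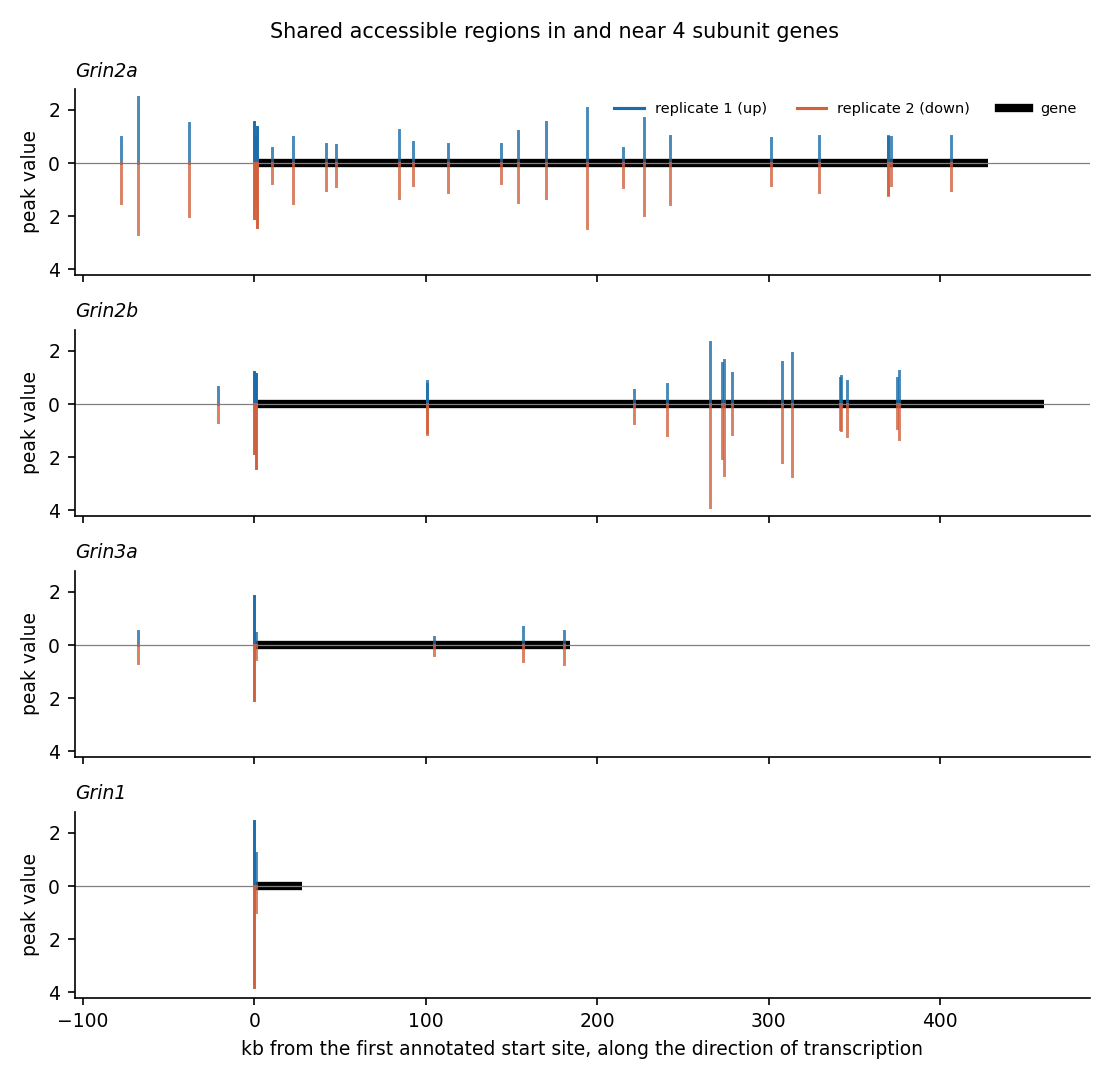
Shared regions of Grin2a, Grin2b, Grin3a and Grin1 by distance from the first annotated start site (kb, horizontal axis), with the peak value (deposited signal) of replicate 1 drawn upwards and of replicate 2 downwards; the black bar is the gene. In the shorter peak list Grin2a regions are spread through the gene, from 10.2 to 406 kb. Those inside Grin2b but outside its promoter start at 100.7 kb, and 13 of 15 lie between 221.6 and 376.0 kb.

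Long genes have room for more regions, so the counts were set beside the 2492 protein-coding genes of at least 100 kb. Grin2a had 4.68 gene-body regions per 100 kb, more than 89.7% of these genes, whose median was 2.09. Grin2b had 3.26, more than 73.5%, and Grin3a had 2.17, more than 51.5%. By distal regions Grin2a, with 17, was above 99.6% of all protein-coding genes, of which 86 had as many or more. The scaffold genes given below ranged from 1 to 31 (Shank2), with a median of 5, and the AMPA receptor genes from 0 to 12. Part of the Grin2a count is room, since 385.6 kb of sequence had Grin2a as the nearest protein-coding gene within 100 kb. Per 100 kb of such sequence Grin2a had 4.41 distal regions, more than 89.6% of the 5955 genes with at least 100 kb, whose median was 1.77. On the same measure Grin2b had 1.68 and Grin3a 1.22. The distal count of Grin2b behind this, 3, was 10 without replicate 2 and 10 with the longer peak list, and that of Grin2a was 31 in either case.

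**Figure D3:**
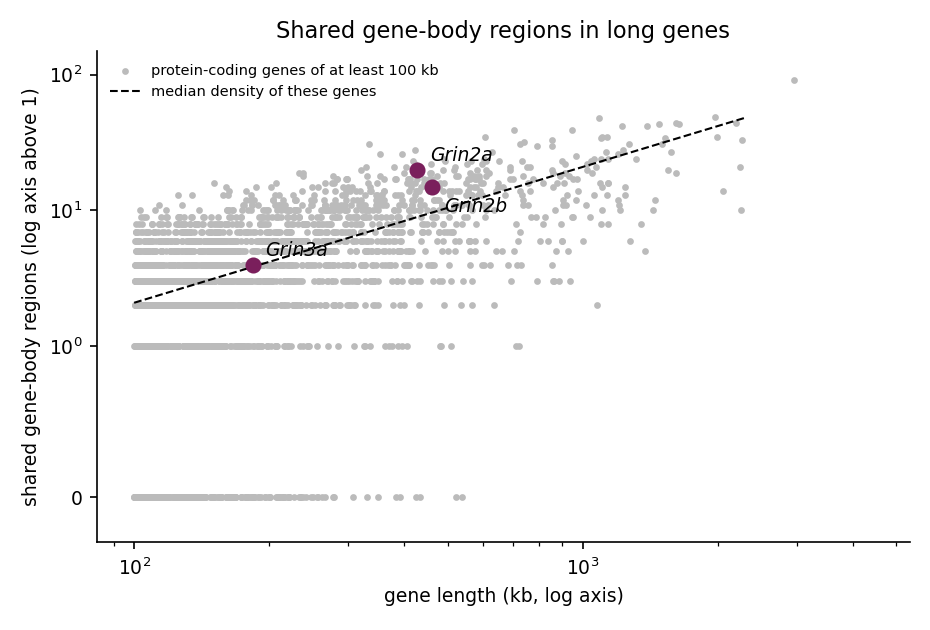
Shared gene-body regions (vertical axis, logarithmic above 1) against gene length (kb, logarithmic axis) for protein-coding genes of at least 100 kb, each a grey point; the dashed line is the median density, 2.09 regions per 100 kb. Grin2a, with 20 regions, and Grin2b, with 15, lie above the line, and Grin3a, with 4, lies close to it.

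Grin3a, 184.1 kb long (chr4:49661611-49845744), had weak regions away from its promoter. Its 4 gene-body regions ran from 0.298 to 0.686 in replicate 1 and from 0.366 to 0.704 in replicate 2, all below the medians of distal shared regions, 0.750 and 1.07. By the mean the strongest was in an intron (chr4:49688760-49688940, 0.686 and 0.615), followed by one, higher in replicate 2, in the last part of the gene, touching the 3′ UTR (chr4:49664991-49665180, 0.517 and 0.704). Grin1 had 1 region of this kind, in an intron (chr2:25318081-25318340), with 1.25 in replicate 1 and 0.972 in replicate 2. It was thus lower in replicate 2, the opposite of the Grin1 promoter 1 kb away.

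Over the family the difference in level between the libraries was smaller away from promoters. All 8 shared promoter regions were higher in replicate 2, by 1.12-fold to 2.11-fold and a median of 1.54-fold. Of the 46 gene-body or distal regions 36 were higher in replicate 2, by a median of 1.22-fold. For all genes the medians were 1.42-fold over promoter regions and 1.32-fold over distal regions, of which 81.2% were higher in replicate 2.

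**Figure D4:**
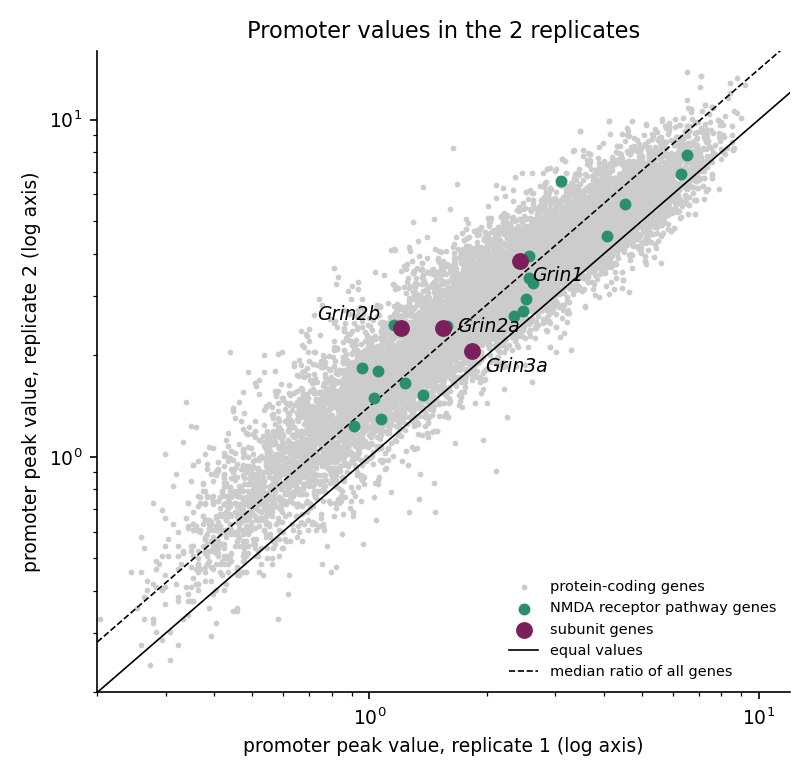
Promoter peak values in replicate 1 against replicate 2 (deposited signal, both axes logarithmic) for all protein-coding genes with a peak in both (grey), NMDA receptor pathway genes (green) and subunit genes (purple); the solid line marks equal values and the dashed line the median ratio of 1.41. Grin1, Grin2a and Grin2b lie above the dashed line and Grin3a between the lines.

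Footprints were found in promoter regions in both replicates for 4 of the 7 genes and for 57.1% of all protein-coding genes. These 4 are the members with a promoter peak in both, which 57.9% of all genes had. Grin1 had 8 in replicate 1 and 7 in replicate 2, Grin2a 19 and 14, Grin2b 12 and 16, and Grin3a 9 and 7. Of the 48 footprints of replicate 1, 28 overlapped (by at least 1 bp) one of the 44 of replicate 2. How often footprints overlapped over all shared regions is not given here, so that number has no background. Per kb of promoter region the members had 12.6 and 11.6 footprints, against 12.7 and 13.2 over all shared promoter regions. Away from promoters 42 of the 46 regions held a footprint in both replicates, though not always at overlapping positions. A further 1, in a coding exon of Grin3a, held none in either. In the 46 regions 60 of the 140 footprints of replicate 1 overlapped one of replicate 2. Neither that overlap nor the 42 of 46 has a share over all distal regions given here. A footprint was present in 93.5% and 95.7% of the 46 in replicates 1 and 2, against 95.8% and 92.6% of all distal shared regions. Per kb the 46 regions had 11.4 and 11.1 footprints, against 11.1 and 10.6 over all distal shared regions.

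In the Grin1 promoter 1 GC box, GGGCGG, which is the string bound by Sp1 and related factors, lay wholly inside a footprint of both replicates, which is the rule used for all strings below. The footprint is in the first exon, at chr2:25319171-25319185 on the minus strand, and capitals mark the box.
Grin1 footprint: aagcggGGGCGGtgg
Over all member regions there were 14 matches to the GC box on either strand, and 3 lay in a footprint of both replicates, 1 each in Grin1, Grin2a and Grin2b. Away from promoters it was 2 of 5, and over all distal regions 23.2% of the matches. In 200 bp windows of all distal shared regions 8.54% held the string, and 3 of the 46 member windows did. Among all RefSeq promoters 35.7% held it, and of the 4 members matched Grin1 and Grin2c did. The printed Grin2c stretch thus has the box without a peak.

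The insulator protein CTCF has a long consensus string, which footprints cover often. Of its 4 matches in member regions on either strand, 3 lay in a footprint of both replicates and 1 in a footprint of replicate 1 only. Over all distal windows 5.47% held a match, against 3 of the 46 member windows, and 71.6% of the matches lay in a footprint of both replicates. The match upstream of Grin2b is in a promoter region (minus strand, chr6:136173693-136173704) and was in a footprint of both. The other 3 are printed with 24 bases on each side, capitals marking the match, on the plus strand at chr16:9666094-9666153, chr16:10073363-10073422 and chr4:49688780-49688839.
Grin2a intron CTCF string: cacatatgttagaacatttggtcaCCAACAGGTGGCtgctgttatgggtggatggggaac
Grin2a upstream CTCF string: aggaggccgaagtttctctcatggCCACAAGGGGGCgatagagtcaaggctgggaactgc
Grin3a intron CTCF string: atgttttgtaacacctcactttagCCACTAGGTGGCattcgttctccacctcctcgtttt
Both Grin2a matches were in a footprint of each replicate and the Grin3a match only in replicate 1. These are matches of letters and not measured binding.

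Strings of activity-related and neuronal factors were searched in the same way. The AP-1 string TGANTCA, bound by Fos and Jun proteins, occurred 10 times in member regions, all away from promoters. None lay wholly in a footprint of either replicate, though 4 touched one. The string was in 7 of the 46 member windows and 15.9% of all distal windows. Of all distal matches 7.33% were in a footprint of replicate 1, 9.33% in one of replicate 2 and 2.06% in both. None of 10 is near those shares. The E-box CAGATG, bound by neuronal basic helix-loop-helix factors, occurred 14 times, 4 of them in a footprint of 1 replicate and none in both. It was in 27.7% of all distal windows and 10 of the 46 member windows. Of all distal matches 21.7% were in a footprint of replicate 1, 20.9% in one of replicate 2 and 10.9% in both. The core GCATGC, part of the longer NRF1 string, occurred 8 times, 2 of them in a footprint of 1 replicate and none in both. Of all distal matches to the core 8.14% were in a footprint of both. The longer string was not found, and 0.112% of all distal windows held it. The core was in 6 of the 46 member windows (13.0%) and in 6.35% of all distal windows. The TATA box TATAAA occurred 6 times, once in a footprint of both, in a Grin2a intron. It was in 6 of the 46 member windows (13.0%) and 9.23% of all distal windows. Of all distal matches 0.654% were in a footprint of both, and the member count rests on 1 match. The left part of the REST string, TTCAGCACC, occurred once, in the Grin2a promoter and outside footprints. It was in 0.265% of all distal windows and 0.371% of all RefSeq promoters. TGACGTCA (CRE), GCGTGGGCG (EGR), the joined REST string and the MEF2 string had no match in member regions. In that order they were in 0.468%, 0.237%, 0.0108% and 0.151% of all distal windows. No match in 46 windows is near those shares. All strings were searched on either strand.

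Genes that work with the receptor were set beside it. Of 24 pathway genes, 20 were accessible at the promoter in both replicates, and 4 of 4 AMPA receptor genes did, against the 57.9% of all genes given above. Among scaffold proteins of the postsynaptic density 8 of 9 had one. The highest means were those of Dlg2, a membrane-associated guanylate kinase that binds GluN2 tails (6.32 and 6.89, mean 6.61 ± 0.403, SD, n = 2), Homer1 (4.52 and 5.64, mean 5.08 ± 0.787) and Shank2 (2.57 and 3.40, mean 2.98 ± 0.585). Shank1 had no promoter peak in either replicate.

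Among kinases, phosphatases and other effectors 9 of 10 had a promoter peak in both. The highest were Cdk5 (6.53 and 7.84, mean 7.18 ± 0.928, SD, n = 2), a kinase that phosphorylates GluN2 subunits, and the tyrosine kinases Src (3.10 and 6.58, mean 4.84 ± 2.46) and Fyn (4.08 and 4.53, mean 4.31 ± 0.318). Nos1, the neuronal nitric oxide synthase coupled to the receptor, had a peak only in replicate 2 (0.758). Genes of the co-agonists were accessible in 3 of 5 cases, with Srr, which makes D-serine, highest (2.62 and 3.28, mean 2.95 ± 0.465). It was followed by Shmt2, which makes glycine (1.16 and 2.46, mean 1.81 ± 0.921), and the glycine transporter gene Slc6a9 (1.07 and 1.29, mean 1.18 ± 0.155). Dao, which breaks down D-serine, and Slc7a10, which transports it, had none in either replicate. The 4 AMPA receptor genes had mean promoter values from 0.715 to 3.30, and the mean of Grin1, 3.13, lay inside that range. As a median, the pathway genes with a promoter peak in both had a mean value of 2.54, against 2.71 over all such genes.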

How the data were processed

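DNase-seq of 2 replicates of right cerebral cortex was analysed from per-library files in mm10 coordinates. Peak values are a signal that the authors deposited, with its scaling not stated. Interval and footprint lists carry an FDR, a p-value adjusted for multiple tests: the deposited intervals are all below 0.05, and the deposited footprints all carry 0.01. Peak caller, footprint tool and aligner: not given in the sources used here. Deposited values are not split by allele.

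Of 2 peak lists per library, the shorter (86601 peaks in replicate 1, 88482 in replicate 2) was used and the longer (142029 and 143055) was an alternative. Peaks of both libraries overlapping by at least 1 bp were merged, giving 106187 regions, 65097 of them shared. Genes and start sites came from GENCODE M21 and sequence from GRCm38.p6. Analyses used Python 3.11.15, pandas 2.3.3, numpy 2.4.6, scipy 1.17.1, pysam 0.24.0 and samtools 1.23.1, and were tested on simulated data. With 1 group there is nothing to compare by a test, so values are given with SD (n = 2) and no p-value was computed.

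All 7 genes are named. Pathway genes are named when among the 3 highest means of their sub-list or without a promoter peak in either replicate, and regions when among the 2 strongest of a gene. Nos1, Calb2, Kdelr1, Fdxr, Wdr18, Gm26653 and further regions were named after their values were seen. The 7 genes, the gene lists and the strings were chosen with earlier results of these data known. One marker gene is not reported here. Alternatives changed the peak list, peak strength, promoter window, overlap, start sites, distance limit, footprint rule and replicate.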

Additional observations from a re-analysis of the deposited data

How the results depend on the processing

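The number of members accessible at the promoter in both replicates was 4 or 5 under all alternatives run, the pathway count stayed within 1.5 times of 20, and so did the mean number of promoter footprints, 46. The gene-body count of 41 rose to 75 with the longer peak list and fell to 24 with the stronger 50% of peaks, and was 45 to 67 when 1 replicate was left out. The distal count of 25 was 48 with the longer list, 14 with the stronger 50%, 16 within 50 kb, and 25 to 49 when 1 replicate was left out; without replicate 2 both counts were over 1.5 times higher. The cause was not tested. Grin2a had the most gene-body regions of the 7 genes in each of these peak-list, strength and single-replicate settings. Its count against that of Grin2b was 36 to 31 with the longer list and 12 to 11 with the stronger 50%. With replicate 1 alone it was 36 to 23, and with replicate 2 alone 21 to 18. With windows of 100 bp the centred log2 difference of Grin2b moved from -0.50 to -0.11. That of Grin2a changed sign with these windows, from -0.15 to 0.08, and with start sites of protein-coding transcripts only (0.08). The other centred differences moved by less than the SD over all genes, 0.35. Promoter values moved by less than the SD of their 2 replicates. When 1 replicate is left out that outcome is fixed by arithmetic, so it shows nothing about stability. The inferred depth of replicate 2 was lower, and neither library can show that a region below its list's threshold was closed. With 2 replicates of 1 group there is no test of any difference. No paired analysis was possible because there is 1 group and no result comes from a test.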

Other observations

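Regions found in a single replicate were unevenly divided in Grin2a. Outside promoters its gene body held 15 regions only in replicate 1, with values from 0.482 to 1.11, and 1 only in replicate 2 (0.695), beside the 20 shared ones. Over the gene bodies of all protein-coding genes the numbers were 8866 only in replicate 1 and 8640 only in replicate 2. Of the 15 regions of Grin2a, 11 were in the longer peak list of replicate 2, as were 5777 of the 8866 over all genes. Grin2b had 8 only in replicate 1 and 3 only in replicate 2, and 6 of those 8 were in the longer list of replicate 2. The split was noticed after the values were seen and was not tested.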
